A study of Rattus norvegicus with 72 samples.

Results

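Genes of macrophages and other myeloid cells were followed in the dorsal root ganglia of rats over the first day after a crush of the sciatic nerve. The 37 genes were listed by name, as genes that macrophages are known to express. Of these, 36 were represented on the array by a probe set annotated to them alone and were tested, among 12276 tested genes in all. Spi1, which encodes the myeloid transcription factor PU.1, was not analysed here. Each gene was read from its brightest probe set, the one with the highest mean over all arrays.

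Macrophages live in the ganglion beside the sensory neurons and take up debris, read antibodies and complement, and present antigen. After an injury to the peripheral axon, macrophages of the ganglion become more numerous around the injured neurons, and monocytes can enter from the blood. Fc receptors bind the tails of antibodies and signal through short adaptor proteins, C1q starts the classical complement cascade, and class II molecules display peptides to T cells. The mannose receptor and the haemoglobin receptor Cd163 are known from macrophages that reside in tissue.

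RNA came from L4 and L5 ganglia of Wistar rats aged 8 to 12 weeks, and 21 arrays were labelled sham, 22 proximal and 29 distal. Proximal and distal name the site of the crush on the sciatic nerve, and no other treatment or genotype is given. There were 8 times, here grouped as an early window of 1, 3 and 8 h (9 sham, 9 proximal and 12 distal arrays), 12 and 16 h (3, 4 and 5) and a late window of 18, 24 and 28 h (9, 9 and 12). Groups of 1 lesion and 1 hour held 3 arrays, except sham with 2 arrays at 12 h and 1 at 16 h, proximal with 2 at both of these hours, and distal with 2 to 6. Letters tell the arrays of a group apart. Nothing in the labels ties each array to an animal of its own, and the p-values therefore reflect variation from array to array, some of which may be technical.

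Values are log2 intensities, and ran from 3.27 to 14.64 over all probe sets. Probe sets with a mean below 5.46 were left out of the tests. A gene was called where the Benjamini-Hochberg adjusted p of the limma fit over all 12276 genes was under 0.05. Dim probe sets separated the arrays into 4 technical sets. Of the 29 distal arrays 27 were in set A, which took in no sham or proximal array, so distal lesion and technical set cannot be told apart. Proximal and sham arrays of 18, 24 and 28 h lay in the same sets hour by hour. The tissue is whole ganglion, so more cells of a type and more RNA per cell cannot be told apart. All 13 sensory neuron markers on the array were above the filter level, and their mean lay between 11.8 and 12.2 in the sham and proximal arrays of 18 to 28 h.

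PU.1 binds DNA at sites with the core GAGGAA, and many promoters of myeloid genes carry such sites. RefSeq promoters of build GRCr8 (250 bases before to 50 bases after the start of the gene) were matched by symbol for 26 of the 37 genes. GAGGAA was found on either strand in 17 of these 26 promoters (65.4%), against 9239 of all 33469 promoters (27.6%). The core is shared with other factors of the Ets family, and a match is only a match of letters. Promoters of 4 genes whose values the results turn on are shown, with GAGGAA or its reverse complement TTCCTC in capitals: Fcgr3a (chr13:85782386-85782685, + strand, 1 match), C1qb (chr5:154407778-154408077, - strand, 2 matches), Mrc1 (chr17:82157475-82157774, + strand, 2 matches) and Gpnmb (chr4:79340878-79341177, + strand, 1 match).
Fcgr3a: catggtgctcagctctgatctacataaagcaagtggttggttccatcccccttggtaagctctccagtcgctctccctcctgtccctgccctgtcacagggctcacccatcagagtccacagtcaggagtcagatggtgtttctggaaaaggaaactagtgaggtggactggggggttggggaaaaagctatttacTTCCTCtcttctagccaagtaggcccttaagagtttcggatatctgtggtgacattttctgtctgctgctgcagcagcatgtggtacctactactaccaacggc
C1qb: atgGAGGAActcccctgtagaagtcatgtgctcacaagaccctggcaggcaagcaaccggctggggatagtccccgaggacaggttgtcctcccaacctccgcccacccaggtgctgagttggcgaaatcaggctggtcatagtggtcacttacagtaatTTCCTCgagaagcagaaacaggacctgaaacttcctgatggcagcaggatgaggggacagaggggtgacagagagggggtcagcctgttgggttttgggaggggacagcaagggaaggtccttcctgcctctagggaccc
Mrc1: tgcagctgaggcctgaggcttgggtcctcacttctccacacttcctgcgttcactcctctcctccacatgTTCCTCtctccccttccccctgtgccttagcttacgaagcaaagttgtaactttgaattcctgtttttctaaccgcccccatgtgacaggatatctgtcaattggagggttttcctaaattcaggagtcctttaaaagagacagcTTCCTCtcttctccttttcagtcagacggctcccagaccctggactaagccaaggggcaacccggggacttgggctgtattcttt
Gpnmb: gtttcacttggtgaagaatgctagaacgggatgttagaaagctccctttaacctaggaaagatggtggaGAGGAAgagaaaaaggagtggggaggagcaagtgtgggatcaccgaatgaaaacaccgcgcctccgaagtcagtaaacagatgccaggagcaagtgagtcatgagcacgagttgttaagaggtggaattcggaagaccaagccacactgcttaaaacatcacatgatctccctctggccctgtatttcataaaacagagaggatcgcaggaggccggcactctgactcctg
In the Fcgr3a promoter the match begins 54 bases before the start of the gene. The 2 matches of C1qb begin 247 and 90 bases before it, those of Mrc1 180 and 35, and that of Gpnmb 181.

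At 18 to 28 h, 17 of the 36 genes were higher after the proximal lesion than after sham surgery and 0 were lower. Of all tested genes 5.35% were called higher and 4.36% lower in this comparison. The median log2 difference of the 36 genes was 0.36, a 1.28-fold difference, against -0.016 for all tested genes. Among genes of antibody and complement recognition 5 of 6 Fc receptor and adaptor genes and 3 of 3 C1q genes were called, while 0 of 4 class II genes, 0 of 3 NADPH oxidase genes and 0 of 2 lineage receptor genes were called. These counts were read from the brightest probe sets. A dimmer probe set of the class II gene RT1-Bb differed by 0.70 (SE 0.19, limma unadjusted p = 0.000474). Those of RT1-Ba, also class II, differed by 0.25, 0.25 and -0.024. At an unadjusted p under 0.05 the fit gave 21 genes higher and 0 lower. The share of all tested genes at this unadjusted cutoff was not counted, here or for the unadjusted counts below. Those counts therefore cannot be set against all genes. A large part of the difference came from 2 arrays, b and c of the proximal lesion at 28 h. Without these 2 arrays 6 genes were called higher, against 2.65% of all genes. Of the Fc receptor, adaptor and C1q genes, only Fcer1g, Fcgr2b and C1qa were still called.

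**Figure D1:**
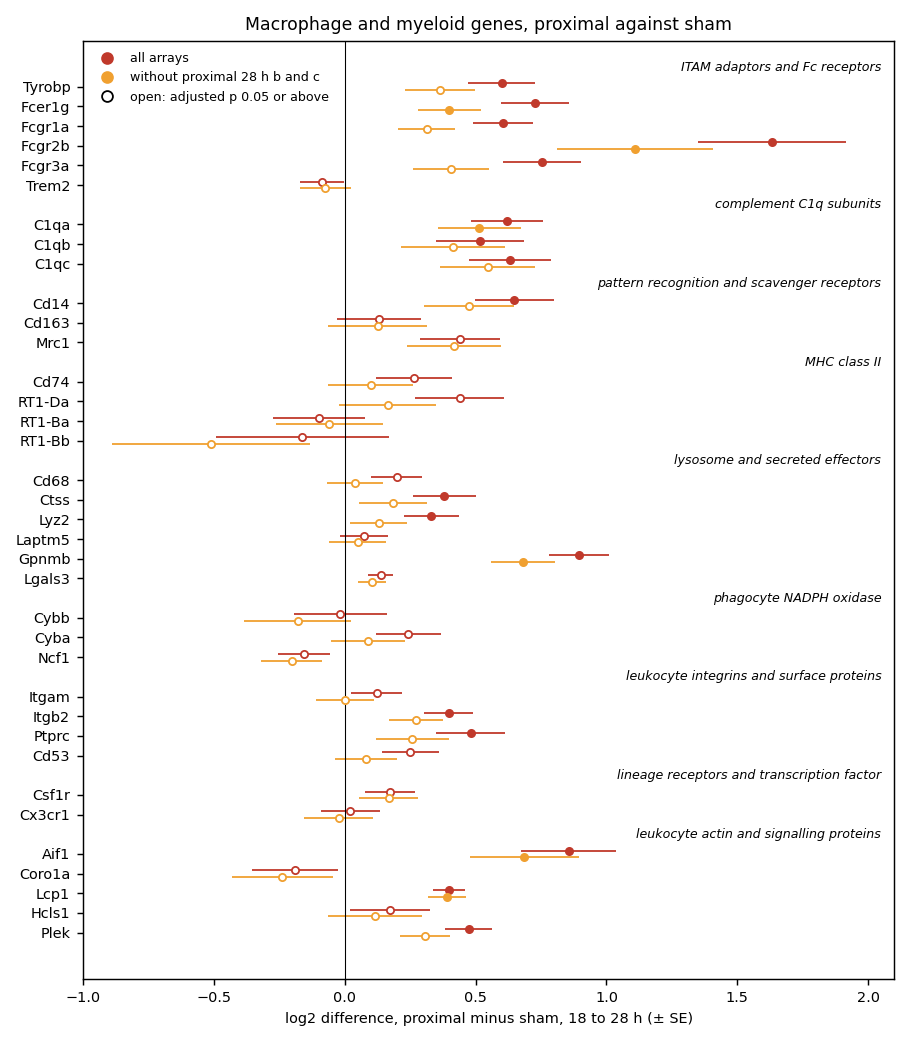
Log2 difference between proximal and sham arrays at 18 to 28 h (x axis, points with SE) for each of the 36 genes, grouped by role, with all arrays and without arrays b and c of proximal 28 h. Filled points were called at an adjusted p under 0.05, which holds for 17 genes with all arrays and for 6 without the 2 arrays.

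Among the Fc receptors and their adaptors, Fcgr2b, the inhibitory receptor for IgG, had the largest difference. It lay between 4.45 and 7.83 in the sham arrays of 18 to 28 h (median 5.15) and between 5.79 and 9.002 in the proximal arrays (median 6.76). The ranges overlapped because of 1 sham array, c at 24 h, which held the 7.83, while the other 8 sham arrays were below all proximal arrays. The difference was 1.63 (SE 0.28, 3.10-fold, adjusted p = 2.36e-05), and it may be understated, since the sham mean was 5.35, under the filter level. Fcer1g, the signalling chain shared by several Fc receptors, lay between 8.57 and 9.71 after sham surgery (median 9.29) and between 9.25 and 11.16 after the lesion (median 9.69). It was 0.73 higher (SE 0.13, 1.66-fold, adjusted p = 3.57e-05), with 4 of 9 proximal arrays above every sham array. Tyrobp, the adaptor that couples Trem2 and related receptors to kinases, was 0.60 higher (SE 0.13, adjusted p = 0.00057).

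Fcgr1a, the high-affinity receptor for IgG, was between 6.38 and 6.87 in sham arrays (median 6.68) and between 6.70 and 8.26 in proximal arrays (median 7.10). Here 8 of 9 proximal arrays were above all sham arrays, and the difference was 0.60 (SE 0.12, adjusted p = 0.000126). Fcgr3a, an activating receptor for IgG complexes, lay between 6.78 and 7.75 in sham arrays (median 7.07) and between 7.08 and 9.48 in proximal arrays (median 7.47), a difference of 0.76 (SE 0.15, adjusted p = 0.000206). Trem2, a receptor for lipids that signals through Tyrobp, was not called (-0.087, SE 0.084, adjusted p = 0.662). Its sham range of 7.08 to 7.42 and its proximal range of 7.05 to 7.44 were nearly the same.

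All 3 chains of C1q were higher after the proximal lesion. C1qa lay between 8.05 and 9.17 in sham arrays (median 8.52) and between 8.72 and 9.75 in proximal arrays (median 8.98). The groups overlapped, through sham arrays c of 24 h at 9.174 and b of 18 h at 8.735, and the difference was 0.62 (SE 0.14, 1.54-fold, adjusted p = 0.000976). C1qb differed by 0.52 (SE 0.17, adjusted p = 0.039) and C1qc by 0.63 (SE 0.16, adjusted p = 0.00369). The C1qb call was lost without any 1 of 12 of the 18 arrays (adjusted p between 0.0519 and 0.0977).

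Of the 3 pattern recognition and scavenger receptors, Cd14, the co-receptor for bacterial lipopolysaccharide, was called. It lay between 6.01 and 7.62 in sham arrays (median 6.73) and between 6.60 and 8.68 in proximal arrays (median 7.46), and differed by 0.65 (SE 0.15, adjusted p = 0.00203). The 3 proximal arrays of 28 h, at 7.82, 8.68 and 8.51, were above every sham array, and the other 6 were not. Mrc1, the mannose receptor, differed by 0.44 (SE 0.15) and missed the threshold (adjusted p = 0.0553). It passed with the technical set as a block (adjusted p = 0.0122), and was 0.42 without b and c of 28 h (adjusted p = 0.241). Cd163, the receptor for haemoglobin bound to haptoglobin, was below the filter level in most arrays of both groups (medians 5.02 and 5.17) and was not called (0.13, SE 0.16).

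The 4 class II genes did not pass the test. Cd74, the invariant chain that guards the peptide groove, differed by 0.27 (SE 0.14, adjusted p = 0.303), and RT1-Da, an alpha chain, by 0.44 (SE 0.17, adjusted p = 0.1). RT1-Ba, another alpha chain, differed by -0.098 (SE 0.17) and RT1-Bb, its beta chain partner, by -0.16 (SE 0.33). Cd74 was at 10.04 and 10.09 and RT1-Da at 10.56 and 10.44 in b and c of proximal 28 h, above every other sham or proximal array of 18 to 28 h. In the same 2 arrays RT1-Ba, at 9.39 and 9.29, lay within the sham range of 8.66 to 9.50. RT1-Ba levels differed by technical set. In sham arrays RT1-Ba lay between 8.26 and 8.83 in set B and between 9.50 and 9.85 in set C.

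Among the 6 lysosomal and secreted products 3 were called, Gpnmb, Ctss and Lyz2. Gpnmb, a membrane glycoprotein of phagocytes that digest lipid-rich debris, lay between 8.30 and 9.39 in sham arrays (median 8.75) and between 9.31 and 10.43 in proximal arrays (median 9.45). The groups nearly parted, with sham array c of 24 h the single one to reach the proximal range, and the difference was 0.90 (SE 0.12, 1.86-fold, adjusted p = 3.57e-08). Ctss, the cathepsin that trims the invariant chain, differed by 0.38 (SE 0.12, adjusted p = 0.0293) and Lyz2, lysozyme, by 0.33 (SE 0.10, adjusted p = 0.0295). Each call was lost without any 1 of 8 of the 18 arrays, with adjusted p between 0.0512 and 0.118 for Ctss and between 0.0591 and 0.104 for Lyz2. Lgals3, galectin-3, differed by 0.14 (SE 0.047, adjusted p = 0.0513), Cd68, a lysosomal membrane protein used to stain macrophages, by 0.20 (SE 0.099, adjusted p = 0.247), and Laptm5, a lysosomal protein of leukocytes, by 0.074 (SE 0.092). None of the subunits of the phagocyte oxidase was called. Cyba, the small membrane subunit, differed by 0.24 (SE 0.12), Cybb, the catalytic one, by -0.017 (SE 0.18) and Ncf1, the cytosolic organiser, by -0.16 (SE 0.10).

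Of the leukocyte surface proteins, Itgb2, the beta chain of the leukocyte integrins, was 0.40 higher (SE 0.093, adjusted p = 0.00214) and Ptprc, the phosphatase CD45 of all leukocytes, 0.48 higher (SE 0.13, adjusted p = 0.0102). The Ptprc call was lost without proximal 28 h c (adjusted p = 0.0575). Itgam, the alpha chain that pairs with Itgb2 on macrophages, differed by 0.12 (SE 0.099, adjusted p = 0.571) and Cd53, a tetraspanin, by 0.25 (SE 0.11, adjusted p = 0.156). The receptors that define the lineage were close to level. Csf1r, the receptor for the growth factor macrophages depend on, lay between 7.34 and 8.28 in sham arrays (median 8.14) and between 7.91 and 8.54 in proximal arrays (median 8.22), a difference of 0.17 (SE 0.096, adjusted p = 0.321). Cx3cr1, the fractalkine receptor, differed by 0.022 (SE 0.11). Arrays b and c of proximal 28 h each had 32 of the 36 genes above all 3 sham arrays of that hour. In them Csf1r was at 8.38 and 8.36, against 8.23, 8.14 and 8.26 in those 3 sham arrays.

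Among the genes of leukocyte actin and signalling, Aif1, Lcp1 and Plek were higher after the proximal lesion. Lcp1, which encodes the actin-bundling L-plastin, was the single gene of the 36 with every proximal array above every sham array. It lay between 11.02 and 11.50 in sham arrays (median 11.28) and between 11.52 and 11.80 in proximal arrays (median 11.63), and the difference of 0.40 (SE 0.062, adjusted p = 2.66e-06) was 0.39 without b and c of 28 h. Over all genes 0.88% had the proximal arrays of 18 to 28 h entirely above the sham arrays. Aif1, the calcium-binding protein Iba1 used to stain macrophages, differed by 0.85 (SE 0.18, 1.81-fold, adjusted p = 0.000634), from a median of 7.40 (range 6.80 to 8.20) to 8.31 (range 7.28 to 9.09). Plek, pleckstrin, differed by 0.47 (SE 0.09, adjusted p = 0.00012). Coro1a, an actin regulator of leukocytes, differed by -0.19 (SE 0.17) and Hcls1, a cortactin-like protein, by 0.17 (SE 0.15), and neither was called.

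The Aif1 value rests on 1 of its 2 probe sets. The dimmer probe set, with a mean of 7.17, differed by -0.022 (SE 0.21). The 2 probe sets were negatively correlated (r = -0.56). Where other genes had a second probe set above the filter level, it differed by 0.20 for Laptm5, 0.022 for Cybb and -0.11 for Trem2, none with an unadjusted p under 0.05, and each gene's brightest probe set was not called either. For RT1-Bb the dimmer probe set differed by 0.70 (SE 0.19, unadjusted p = 0.000474) where the brighter one differed by -0.16. The 3 dimmer probe sets of RT1-Ba differed by 0.25, 0.25 and -0.024. Class II genes are polymorphic and near-identical copies exist, so which transcripts the RT1 probe sets measured is uncertain.

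None of the 36 genes passed the test in the first hours. At 1 to 8 h the limma fit called 0 higher and 0 lower (0.114% and 0.0163% of all genes), with 2 higher and 0 lower at an unadjusted p under 0.05. The median difference was 0.046, against 0.036 for all genes. At 12 and 16 h 0 were called in either direction (0.057% of all genes in each), with 3 higher and 4 lower unadjusted. C1qc had the largest difference averaged over 1 to 8 h (0.43, SE 0.16, adjusted p = 0.213). Single hours differed by more and not always in 1 direction. Aif1 was at 6.26 to 6.88 in sham and at 7.18 to 7.58 in proximal arrays of 3 h (0.83, SE 0.32), and at 6.18 to 7.13 and 5.49 to 6.04 at 8 h (-1.03, SE 0.32, adjusted p = 0.0794). Cd163 was at 4.83 to 5.21 in sham and at 5.85 to 6.14 in proximal arrays of 8 h (0.91, SE 0.28, adjusted p = 0.0782). In these 3 cases the groups did not overlap, but the adjusted p missed the threshold (it was 1 for Aif1 at 3 h). They were not the only such cases. Among others, C1qc and Gpnmb at 8 h and Laptm5 at 1 h had no overlap either. The share of all tested genes without overlap at these hours was not counted.

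Hour by hour, limma called 0 of the 36 genes at 1, 3, 8, 12 and 16 h, where it called 0%, 0%, 1.66%, 0.0326% and 0.0244% of all genes higher. Unadjusted, 2, 2, 4, 0 and 1 of the 36 were higher at these hours and 0, 0, 1, 3 and 2 lower. At 18 h 2 genes were higher (1.22% of all genes), Gpnmb (0.91, SE 0.20, adjusted p = 0.0043) and Lcp1 (0.41, SE 0.11, adjusted p = 0.0287). At 24 h 0 were called (0.969% of all genes), with 9 higher and 0 lower unadjusted. Without sham array c of 24 h 4 genes were called at that hour, without sham array b 1, and without any other array of the hour 0. At 18 h the count was 0 without sham array a, 1 without sham c, proximal a or proximal b, and 3, of which 2 were higher and 1 lower, without sham b or proximal c.

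At 28 h 19 genes were higher and 0 lower, against 3.08% of all genes higher. The largest differences were in Fcgr2b (2.99, SE 0.49), Fcgr3a (1.82, SE 0.26), Fcer1g (1.44, SE 0.22), Aif1 (1.34, SE 0.32) and Cd14 (1.33, SE 0.26). RT1-Da (1.02, adjusted p = 0.0287) and Cd68 (0.60, adjusted p = 0.0255) were called here and not over 18 to 28 h. The count was 10 without array b and 10 without array c of proximal 28 h. Of the 36 genes, 25 had all 3 proximal arrays above all 3 sham arrays at 28 h, against 11.8% of all genes. At 18 h this held for 6 genes (4.74% of all genes) and at 24 h for 7 (6.8%).

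The difference at 18 to 28 h was larger than that at 1 to 8 h for 10 genes (interaction in the limma fit, 3.03% of all genes higher). They were Fcer1g, Fcgr1a, Fcgr2b, Fcgr3a, Cd14, Gpnmb, Ptprc, Aif1, Lcp1 and Plek, with changes between 0.41 and 1.31. The C1q genes were not among them. The difference at 28 h was tested against the mean of those at 18 and 24 h. This contrast called 1 gene, Fcgr3a (1.60, SE 0.32, adjusted p = 0.0095), and 0.179% of all genes, and 14 of the 36 were higher at an unadjusted p under 0.05. It called 0 without proximal 28 h b, proximal 28 h c or sham 28 h a, 9 without proximal 28 h a, and 2 without proximal 24 h c or sham 24 h a.

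**Figure D2:**
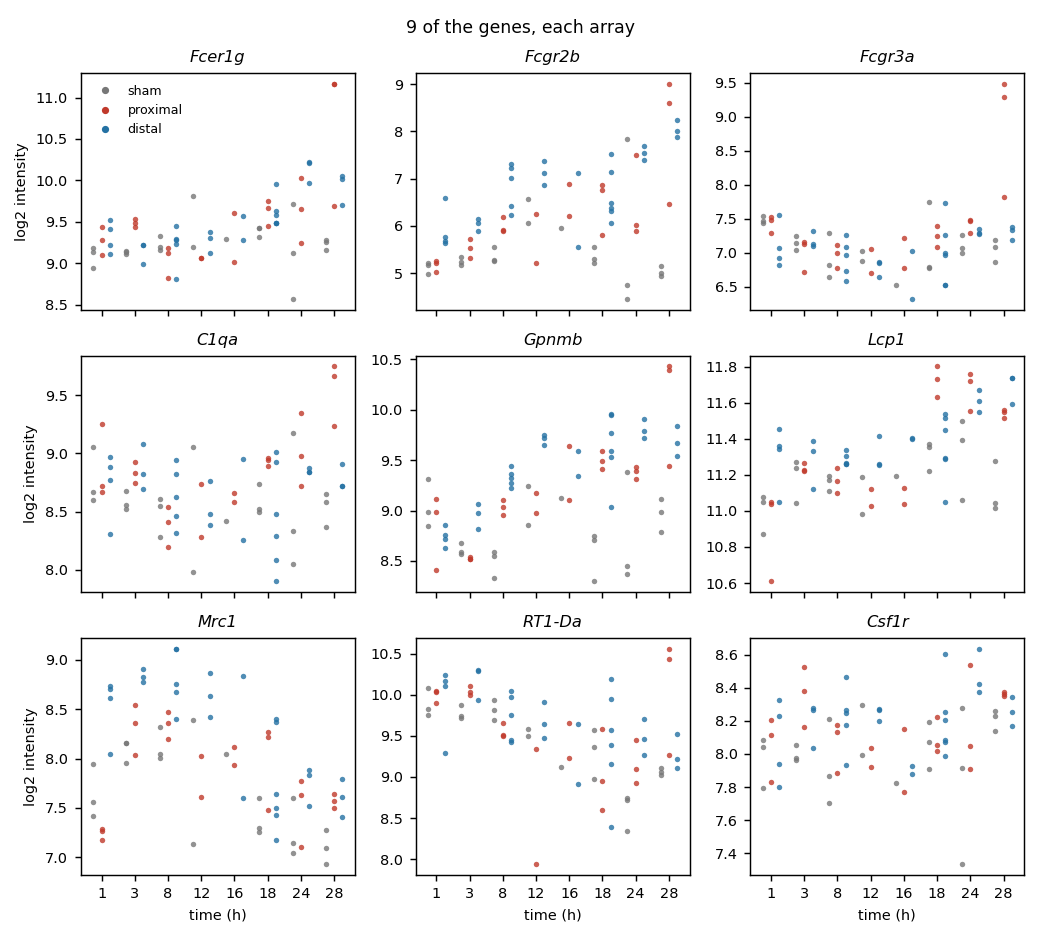
Log2 intensity (y axis) of 9 of the 36 genes in every array by time in hours (x axis, hours evenly spaced), with sham, proximal and distal arrays side by side. Fcgr3a shows 2 proximal arrays at 28 h, at 9.30 and 9.48, above all others, while Lcp1 is higher in all 9 proximal arrays of 18 to 28 h than in the 9 sham arrays.

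The 3 proximal arrays of 28 h were unlike each other. Arrays b and c had means over the 36 genes of 8.959 and 8.997, 0.90 and 0.94 above the mean of the sham arrays of 28 h, while array a was 0.26 above it. Each of b and c had 32 of the 36 genes (88.9%) above all 3 sham arrays, against 26.3% and 30.6% of all tested genes. Array a had 26 (72.2%), against 19.4% of all genes. In b 16 and in c 15 of the genes stood more than 1 log2 unit above the sham mean, and in a 1 did, Fcgr2b. Of all tested genes 1.69% in b, 1.92% in c and 0.554% in a stood as far above it.

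Fcer1g was at 9.29, 9.26 and 9.16 in sham a, b and c of 28 h and at 9.69, 11.16 and 11.16 in proximal a, b and c. Fcgr3a was at 6.86, 7.08 and 7.18 after sham surgery and at 7.82, 9.30 and 9.48 after the lesion. Fcgr2b was at 5.153, 5.005 and 4.928 after sham surgery, and at 6.455, 8.609 and 9.002 after the lesion. For these 3 genes the groups did not overlap, and array a lay nearer to sham than to b and c. Lyz2, at 11.87, 12.05 and 11.98 in sham arrays, was at 12.12 in a and at 13.03 in both b and c.

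**Figure D3:**
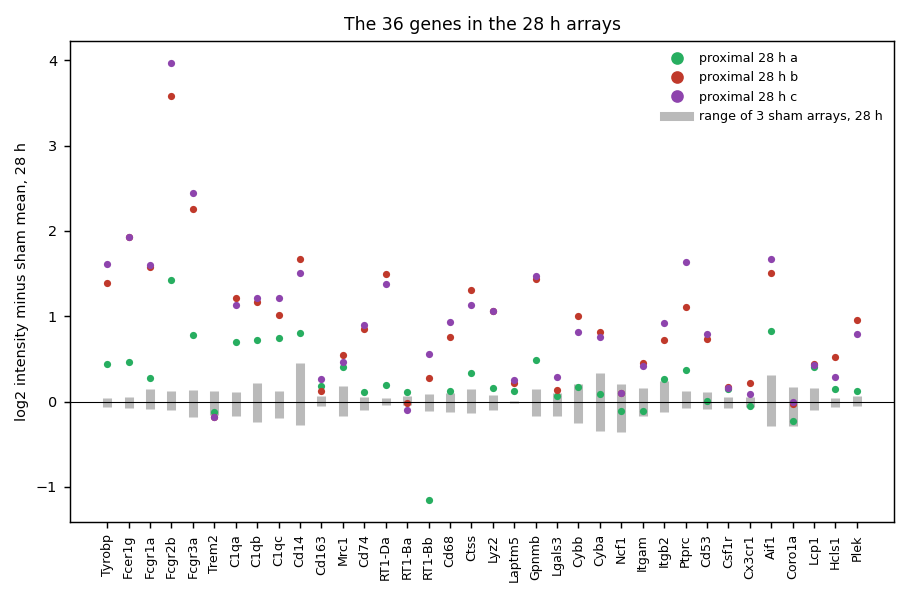
Log2 intensity minus the mean of the 3 sham arrays of 28 h (y axis) for each of the 36 genes (x axis) in proximal arrays a, b and c of 28 h, with the range of the sham arrays as a grey bar. Arrays b and c lie close to each other and above the bar for 32 genes each, and array a for 26.

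Arrays b and c of 28 h were also more alike than any other arrays of 1 group. Over the tested genes the SD of the difference between b and c was 0.126 for sham and 0.143 for proximal, the smallest and the next smallest of the 83 pairs of arrays of 1 group, whose median was 0.274. The labels do not say whether b and c share an animal or an extract. With b and c averaged into 1 array in both groups, 13 genes were called higher at 18 to 28 h (4.06% of all genes) and 6 at 28 h (1.08%). Those 6 were Tyrobp, Fcer1g, Fcgr1a, Fcgr2b, Fcgr3a and Gpnmb.

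Without b and c of proximal 28 h, the 6 genes called at 18 to 28 h were Fcer1g (0.40, SE 0.12), Fcgr2b (1.11, SE 0.30), C1qa (0.51, SE 0.16), Gpnmb (0.68, SE 0.12), Aif1 (0.69, SE 0.21) and Lcp1 (0.39, SE 0.073). The interaction with time then called 2 genes (1.51% of all genes). At 28 h, where 1 proximal array was left, with a spread borrowed from the rest of the groups, limma called 0 of the 36 (0.432% of all genes higher), and 5 were higher at an unadjusted p under 0.05. Without the hour of 28 h altogether 3 genes were called over 18 and 24 h, and the share of all genes is not given for this run.

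Markers of other cells moved with these 2 arrays in part. The mean of the 10 neutrophil markers on the array, 6 of which were below the filter level, was 6.24 in b and 6.20 in c, against 5.51 in a and 5.12 to 5.39 over the sham arrays of 18 to 28 h. The calprotectin subunit S100a8 was at 6.81 and 6.78 in b and c and at 4.42 to 5.06 in those sham arrays, and Csf3r, the receptor for the granulocyte growth factor, at 6.91 and 6.74 against 4.77 to 5.16. S100a9, the partner of S100a8, was at 8.95 and 9.30, against 5.44 to 6.47. In both b and c 6 of the 10 were above every one of these sham arrays, the others being Cxcr2, a chemokine receptor, Lcn2 (5.71 in each, sham 4.42 to 4.87) and Mmp9 (5.37 and 5.42, sham up to 5.16). Camp, Mmp8, Np4 and Defa5 were not. The mean of 15 lymphocyte markers, 8 below the filter level, was 5.91 in b, 5.84 in c and 6.02 in a, with a sham range of 5.30 to 5.85. The 4 erythrocyte markers had means of 8.34 and 8.26, with a sham range of 7.34 to 8.20. The part of other cell types in the difference of the 36 genes was not tested.

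**Figure D4:**
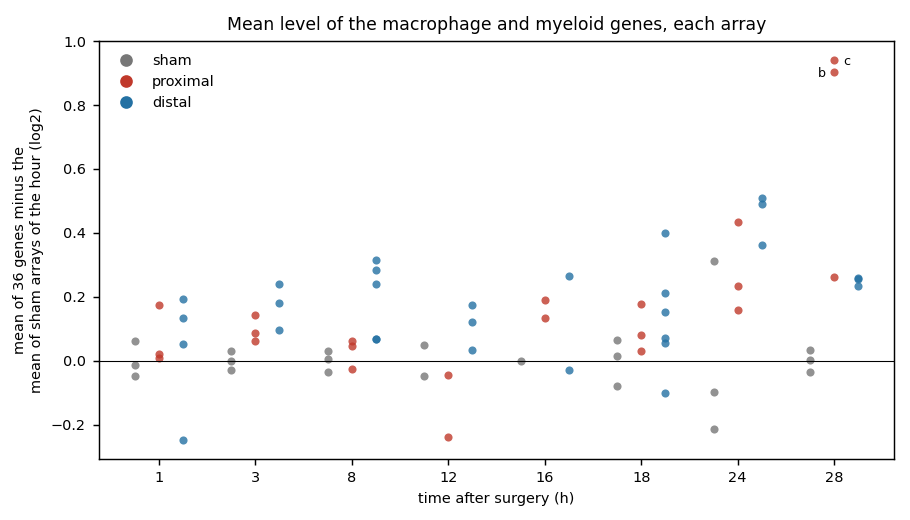
Mean log2 intensity of the 36 genes in each array minus the mean of the sham arrays of its hour (y axis), by time in hours (x axis, hours evenly spaced), with sham, proximal and distal arrays side by side. Proximal arrays b and c of 28 h stand at 0.90 and 0.94, and every other array is at or below 0.51.

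Within technical sets the median difference was above 0 at each of these hours. At 18 h 22 of the 36 genes were higher in proximal arrays within set B (2 arrays each, median 0.18) and 26 within set C (1 array each, median 0.12). Over both sets together 51.1% of all tested genes were higher at 18 h, and their share within each set was not counted. At 24 h all sham and proximal arrays were in set D, with 28 genes higher (median 0.28), against 44.5% of all tested genes. At 28 h they were likewise in set D, with 33 genes higher (median 0.62), against 42.1% of all tested genes. A fit that blocked on technical set called 20 genes at 18 to 28 h. The block left the differences of the 36 genes as they were, and the share of all genes called by it is not given.

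The sham arrays changed over time as well. Between 1 to 8 h and 18 to 28 h 3 genes were called higher and 8 lower after sham surgery, against 35.4% and 4.94% of all genes. Sham arrays of the early and late hours lay in different technical sets in part, and a fit that blocked on the set had 2 genes higher and 7 lower. The share of all genes called in that fit is not given. The genes called lower were C1qb (-0.57), C1qc (-0.53), Cd14 (-0.44), Mrc1 (-0.70), Cd74 (-0.48), RT1-Da (-0.84), Ctss (-0.38) and Lyz2 (-0.29). RT1-Da lay between 9.69 and 10.09 at 1 to 8 h and between 8.34 and 9.58 at 18 to 28 h, with no overlap. The share of all tested genes without overlap between these windows was not counted. All of the 8 genes but Cd14 (-0.30, adjusted p = 0.188) were called lower with the block as well. Those called higher were Aif1 (0.47), Coro1a (0.47) and Plek (0.22). None of these 3 was called with the block, where Aif1 (-0.18) and Coro1a (-0.077) changed sign, Plek was at 0.099, and RT1-Ba (0.32) and Hcls1 (0.24) were called higher instead. Without sham array a of 18 h 7 genes were called.

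In the distal arrays 12 of the 36 genes rose and 7 fell between 1 to 8 h and 18 to 28 h, against 15.4% and 9.87% of all genes. The counts by role, read from the brightest probe sets, were as follows. Of the Fc receptor and adaptor genes 4 of 6 rose and 0 fell, and of the actin and signalling genes 3 of 5 rose and 0 fell. Of the class II genes 0 rose and 2 of 4 fell, and of the C1q genes 0 rose and 1 of 3 fell. Dimmer class II probe sets did not all go the same way. They changed by 0.64 for RT1-Bb and by -0.38, 0.75 and 0.22 for RT1-Ba. Most of the distal arrays lay in set A, and with the technical set as a block 13 genes rose and 9 fell, the share of all genes not being given.

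Tyrobp lay between 6.75 and 7.46 in the 12 early distal arrays (median 7.07) and between 7.01 and 8.14 in the 12 late ones (median 7.81). The ranges overlapped, and the change was 0.76 (SE 0.11, adjusted p = 5.84e-07). Fcgr2b rose by 1.15 (SE 0.25, adjusted p = 0.000418), Fcgr1a by 0.67 (SE 0.10), Fcer1g by 0.66 (SE 0.12), Gpnmb by 0.70 (SE 0.10) and Plek by 0.59 (SE 0.081). Cd14 rose by 0.50 (SE 0.14), Aif1 by 0.49 (SE 0.16), Cd68 by 0.30 (SE 0.089), Lcp1 by 0.26 (SE 0.055), Itgb2 by 0.24 (SE 0.084) and Lgals3 by 0.19 (SE 0.042). The dimmer probe set of Aif1 changed by 0.14. Fcgr3a, which stood out in the proximal arrays of 28 h, did not pass the test here (0.14, SE 0.13, adjusted p = 0.508).

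Mrc1 had the largest fall. It lay between 8.04 and 9.11 in the early distal arrays (median 8.75) and between 7.18 and 8.40 in the late ones (median 7.62), with little overlap, a change of -1.02 (SE 0.14, adjusted p = 4.34e-08). Cd163 fell by 0.57 (SE 0.14, adjusted p = 0.00194), from a median of 6.22 to 5.54. RT1-Bb fell by 1.01 (SE 0.30), C1qb by 0.60 (SE 0.15), Ctss by 0.59 (SE 0.11), RT1-Da by 0.55 (SE 0.15) and Ncf1 by 0.42 (SE 0.09). The dimmer probe set of RT1-Bb moved the other way (0.64), so the fall of RT1-Bb is that of its brighter probe set alone. Of the 7 genes that fell in distal arrays, 4 also fell in sham arrays (Mrc1, C1qb, RT1-Da and Ctss). Cd14 rose in distal arrays, and its fall in sham arrays was not called with the technical set as a block. The difference between the changes of distal and sham arrays was not tested.

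**Figure D5:**
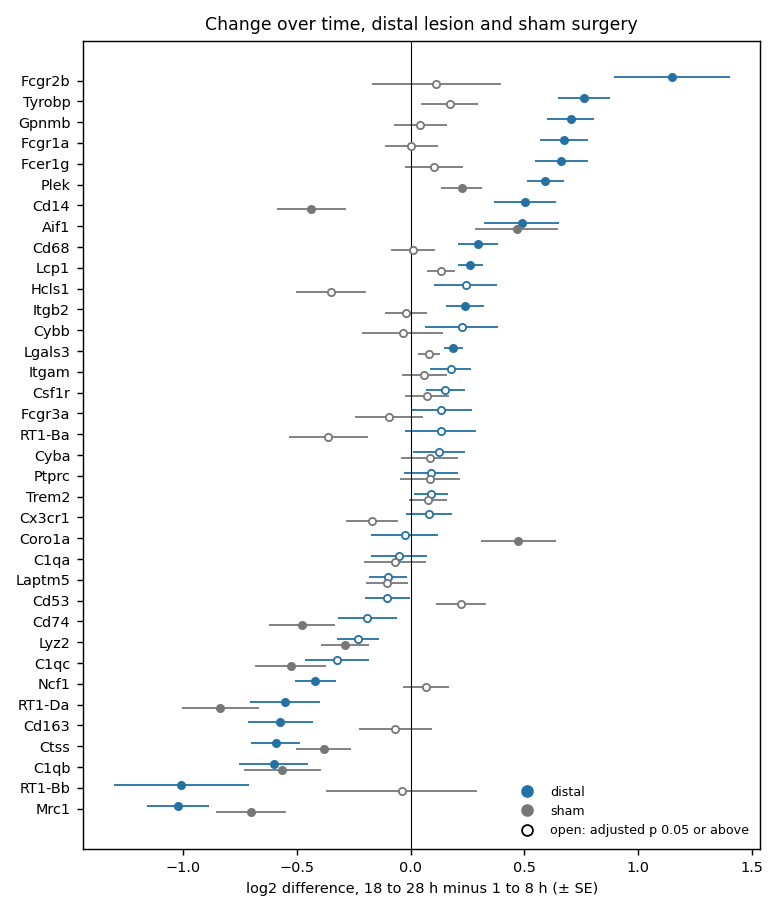
Log2 difference between 18 to 28 h and 1 to 8 h (x axis, points with SE) for each of the 36 genes, in distal and in sham arrays, ordered by the distal value. Filled points were called at an adjusted p under 0.05. Fcgr2b (1.15) is at the distal top and Mrc1 (-1.02) at the bottom.

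The change over time in distal arrays and the difference of proximal and sham arrays at 18 to 28 h have no array in common. Of the 17 genes higher after the proximal lesion, 10 rose over time after the distal one (58.8% of the 17 and 83.3% of the 12 that rose). They were Tyrobp, Fcer1g, Fcgr1a, Fcgr2b, Cd14, Gpnmb, Itgb2, Aif1, Lcp1 and Plek. Aif1 is counted here by its brighter probe set. Its dimmer one differed by -0.022 between proximal and sham arrays and changed by 0.14 over time in distal arrays. For reference, 33.3% of the 36 genes and 15.4% of all tested genes rose over time in distal arrays. The same overlap over all tested genes was not counted. The gene list was chosen with earlier results of these data known, so the overlap is not independent evidence. C1qb and Ctss were higher in proximal than in sham arrays of 18 to 28 h and fell over time in distal arrays. Both also fell over time in sham arrays. In proximal arrays, C1qb means at 1, 3 and 8 h were 8.41, 8.75 and 8.77. At 18, 24 and 28 h they were 8.09, 8.13 and 8.91. Those of Ctss were 10.11, 10.54 and 10.51, then 10.13, 10.045 and 10.90. The change over time in proximal arrays alone was not tested.

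Set beside sham arrays of 18 to 28 h, the distal arrays had 19 genes higher and 7 lower, against 32.3% and 29.5% of all genes, and this contrast carries the technical set in full. Fcgr2b (2.06, SE 0.27), Cybb (1.35), Gpnmb (0.95) and Aif1 (0.94) were highest. Among the called genes RT1-Ba (-0.81), Ncf1 (-0.53) and Cx3cr1 (-0.47) were lowest, and RT1-Bb (-0.55, SE 0.32, adjusted p = 0.124) was not called. Cybb was already apart in the first hours, with a median of 7.76 in distal and 6.60 in sham arrays of 1 to 8 h. The single distal array of 18 h outside set A had RT1-Ba at 9.98 and Hcls1 at 8.70, where the 5 others had 8.15 to 8.59 and 7.32 to 7.79, and Aif1 at 6.45, where they had 7.75 to 8.07. Set against the sham array of the same set and hour, 15 of the 36 genes were higher in that array, with a median of -0.081.

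Genes that act with the 36 were read from 8 further lists at 18 to 28 h, proximal against sham, where 5.35% of all genes were higher. Of 9 tested monocyte chemoattractants and myeloid growth factors 3 were higher and 0 lower: Ccl2 (1.43, SE 0.16), Ccl7 (1.04, SE 0.15) and Cxcl10 (1.03, SE 0.26), chemokines for monocytes and T cells. Ccl2 was at 10.44 to 11.24 in the proximal arrays of 18 and 24 h, above the 8.87 to 9.99 of all sham arrays of 18 to 28 h. At 28 h it was at 11.03 and 11.15 in proximal b and c, and at 9.88 in a, inside that sham range. Cxcl10 was at 11.03 and 11.00 in b and c of proximal 28 h and at 7.23 to 7.91 in the other 7 proximal arrays, within reach of the sham range of 6.89 to 7.60. Of 7 receptors for such factors P2ry6 (0.43) and C5ar1 (0.29) were higher and Cxcr4 (-0.41) lower.

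Of 5 inflammatory cytokines 3 were higher, Il6 (3.46, SE 0.23, sham mean below the filter level), Il1b (0.64, SE 0.12) and Il18 (0.38, SE 0.13). Of 6 complement genes other than C1q the protease C1s (0.60, SE 0.13) and the C1 inhibitor Serping1 (0.47, SE 0.13) were higher. Of 20 other phagocyte genes 4 were higher and 0 lower: the perforin-like Mpeg1 (0.52, SE 0.13), the lipid receptor Cd36 (0.61, SE 0.15), the haem oxygenase Hmox1 (0.49, SE 0.12) and the thiol reductase Ifi30 (0.29, SE 0.096). Mpeg1 was at 10.17 and 10.16 in b and c of proximal 28 h and at 8.49 to 8.76 in the other 7 proximal arrays. Of 12 leukocyte signalling genes 3 were higher, Rac2 (0.41), Arpc1b (0.38) and Ptpn6 (0.30), and of 5 genes of class II loading 2 were higher, RT1-DMb (0.30) and Ifi30. Of 14 general lysosomal genes limma called 0, and 1 had an unadjusted p under 0.05. Their differences lay between -0.12 (Atp6v0d1, a proton pump subunit) and 0.21 (Ctsc, a cathepsin).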

How the data were processed

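Each of the 72 samples is 1 Affymetrix array of rat ganglion RNA. The authors deposited log2 intensities per probe set, made with RMA per the submitters' processing notes, which give no version. It is unknown if the 72 arrays went through RMA as 1 batch, and no further normalization was applied. Arrays carry no read depth, and their number limits the precision.

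Probe sets were named from the platform annotation (20826 with 1 symbol, 436 with several and 9780 with none), and those with several symbols were not used. Each gene was represented by its brightest probe set, and genes below the 25th percentile (5.46) were not tested. One linear model with a mean for each of the 24 groups of lesion and hour was fitted to all arrays with limma 3.58.1 in R 4.3.3 (lmFit, eBayes with an intensity trend, 48 residual degrees of freedom), and files were read with the data.table package, version 1.17.8. Windows are averages of the hours' differences with equal weight. P-values were adjusted over all tested genes by the Benjamini-Hochberg method. The script was tested on simulated data. The 4 technical sets come from Ward clustering of the arrays on probe sets below the filter level.

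The members and all gene lists were chosen with earlier results of these data known, so no list is independent evidence. Every member is reported, and genes of the other lists are named where they were called or where the text says so. Alternatives were other filters, a repeated quantile normalization, all probe sets, array weights, the replicate block, the technical set as a block, fits on the compared arrays alone, and leaving out each array, each hour, or the arrays whose letter is followed by o. The removal and the averaging of arrays b and c of 28 h, and the contrast of 28 h with 18 and 24 h, were chosen after seeing the data. Array letters were not taken as pairs, since same-letter sham and proximal arrays had every correlation over 0.1 at 1, 12 and 18 h alone. At 3 and 8 h all correlations were negative. At 24 h they were 0.278, -0.314 and 0.575, and at 28 h 0.297, 0.161 and 0.087.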

Additional observations from a re-analysis of the deposited data

Results flagged for a closer look

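Among 108 combinations of a gene and a group of 4 to 10 arrays, all of them distal, 9 had 1 array far from the others by Dixon's test, where chance gives about 5.4. At 1 h, Tyrobp was at 7.393 in array c (others 6.745 to 6.804) and Fcgr2b at 6.59 in array do (others 5.637 to 5.763). In array a of 1 h, Cd74 was at 9.628 (others 10.063 to 10.085) and RT1-Da at 9.294 (others 10.103 to 10.244). At 18 h, Fcer1g was at 9.953 in array eo (others 9.485 to 9.628). Array do of 18 h, the single distal array of that hour outside technical set A, held 4 of the 9: RT1-Ba at 9.98 (others 8.149 to 8.589), Hcls1 at 8.703 (others 7.319 to 7.788), Aif1 at 6.447 (others 7.751 to 8.069) and Plek at 6.839 (others 7.377 to 7.541).

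The difference between proximal and sham arrays was larger at 18 to 28 h than at 1 to 8 h for 10 genes, by the interaction in the limma fit. The change was 0.61 for Fcer1g, 0.75 for Fcgr1a, 1.31 for Fcgr2b, 0.80 for Fcgr3a, 0.81 for Cd14, 0.82 for Gpnmb, 0.63 for Ptprc, 0.86 for Aif1, 0.41 for Lcp1 and 0.47 for Plek. Without arrays b and c of proximal 28 h the interaction was called for Gpnmb (0.60, adjusted p = 0.0189) and Lcp1 (0.40, adjusted p = 0.00722).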

How the results depend on the processing

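No gene called between proximal and sham arrays at 18 to 28 h reversed its direction under any alternative run. The count of 17 fell to 3 without 28 h and to 6 without arrays b and c of proximal 28 h, and leaving out 1 array gave 13 to 20. On the compared arrays alone the calls of C1qc, Cd14, Ctss, Lyz2 and Ptprc were lost. The interaction count of 10 became 19 with array weights (whose estimation did not converge), 2 without 28 h, 4 without 8 h and 2 without b and c. At 28 h the count of 19 became 29 with array weights, 0 without b and c, 6 with b and c averaged, and 10 to 21 without 1 array. The contrast of 28 h with 18 and 24 h, with 1 call, gave 17 with array weights, 2 with the technical set as a block, 0 on the compared arrays alone, 0 without b and c, 0 with them averaged, and 0 to 9 without 1 array. At 18 h the 2 calls became 4 with array weights, 0 on the compared arrays alone, and 0 to 3 without 1 array. Where no gene was called, array weights gave 3 at 1 to 8 h, 4 at 1 h, 1 at 3 h, 3 at 8 h and 8 at 24 h. The compared arrays alone gave 1 at 3 h and 5 at 8 h. Leaving out the arrays with o gave 2 at 8 h and 1 at 24 h, and the technical set as a block 2 at 8 h and 3 at 24 h. Leaving out 1 array gave 0 to 1 at 16 h and 0 to 4 at 24 h. The sham count over time, 11, was 6 without 3 h, 5 without 8 h and 7 to 15 without 1 array. Shares of all genes are given above for the removal and the averaging of b and c, and not for the other alternative runs. The counts of those other runs therefore do not show if the members gained or lost calls more than all genes did. Where no cause is named, the cause was not tested.

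With the array letter as a replicate block, 1 gene was called at 8 h, and the other counts stayed within 1.5 times. The block added Mrc1 (adjusted p = 0.0366) and 1 further gene at 18 to 28 h. Genes near the filter level, such as Cd163 and Ncf1, have values close to the background of the array, which limits what their differences show.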
